A study of Mus musculus with 9 samples.

Results

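The unfolded protein response was examined through 10 genes chosen by name: Xbp1, Ern1, Hspa5, Hsp90b1, Dnajb9, Dnajc3, Sec61b, Herpud1, Atf4 and Ddit3. All 10 were found among the 14862 genes of the deposited table. RNA had been sequenced from 3 subsets of dendritic cells sorted from the spleen of C57Bl/6 mice aged 8 to 12 weeks, with 3 libraries of each subset and no treatment or genetic change named in the labels. Type 1 conventional dendritic cells (cDC1) take up dead cells and cross-present their antigens to CD8 T cells, and type 2 conventional dendritic cells (cDC2) present mainly to CD4 T cells. The subset labelled mcDC is not spelled out in the labels, and the abbreviation is used in the field for merocytic dendritic cells. The markers used to sort each subset, and whether a library came from 1 animal or from pooled animals, is not given in the sources used here, so p-values measure the spread between libraries, which may be technical.

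Secreted and membrane proteins fold in the endoplasmic reticulum (ER). When folding falls behind, 3 sensors in the ER membrane respond: IRE1, PERK and ATF6. IRE1, encoded by Ern1, cuts a short stretch out of Xbp1 mRNA in the cytoplasm, and the rejoined mRNA encodes the active transcription factor XBP1, which raises genes of folding, translocation and degradation. PERK phosphorylates eIF2, which slows translation in general and favours that of Atf4, whose product can induce Ddit3. In dendritic cells, IRE1 and XBP1 are known for their activity in cDC1 without added stress, and loss of XBP1 there is known to make IRE1 degrade other mRNAs.

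The labels were checked against defining transcripts. The mean log2(RPKM + 1) of 10 markers of cDC1 was 7.27 to 7.69 in the cDC1 libraries, 3.53 to 3.94 in cDC2 and 4.84 to 5.86 in mcDC, and that of 10 markers of cDC2 was 2.52 to 3.62, 5.62 to 5.70 and 4.41 to 4.81. Of 12 markers of red pulp macrophages, 11 were higher in mcDC than in cDC1 by limma at an adjusted p of 0.05 (9.53% of all genes). Against cDC2, 8 were higher in mcDC (2.06% of all genes). The mean log2(RPKM + 1) of the 12 was 3.24 to 3.75 in cDC1, 3.74 to 4.07 in cDC2 and 5.22 to 5.92 in mcDC. Adgre1 and Cd68 ran the other way against cDC2, at 45.1 to 64.4 and 155 to 190 RPKM in mcDC. In cDC2 they were at 87.6 to 95.7 and 225 to 303. The part of these 12 markers in the results was not tested. The cDC1 libraries held 9.70 to 11.03 M reads, those of cDC2 9.20 to 12.44 M, and those of mcDC 5.15 to 8.24 M. The library of mcDC replicate 3 stood apart, with the fewest reads and 12.35% of genes at 0 against 2.71% to 6.47% in the other libraries. Within mcDC it was higher than the other libraries at short genes and lower at long ones, by a median of 0.44 and -0.45 on the log2 scale in the shortest and longest of 4 equal bins of gene length.

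The stretch that IRE1 removes is shown first, since it decides what the Xbp1 values can say. It was found in 3 Xbp1 transcripts of GENCODE M21 (GRCm38) as 2 cut sites of the form CNGCAG lying 26 bases apart. It lies in coding exon 4 of transcript Xbp1-201 at chr11:5524279-5524304 on the plus strand. In the line below the 26 removed bases are in capitals, with 20 bases of mRNA on either side:
Xbp1 mRNA around the IRE1 cuts: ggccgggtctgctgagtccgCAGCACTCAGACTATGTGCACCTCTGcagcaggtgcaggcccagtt
Because 26 leaves a remainder of 2 when divided by 3, the cut shifts the reading frame. The deposited values count reads per gene, and cut and uncut mRNA cannot be told apart in them.

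The promoters of 5 of the genes follow: the 4 that hold matches to known stress-response motifs, and that of Xbp1, which holds none. Those of Ern1, Dnajb9, Sec61b, Atf4 and Ddit3 also held none and are not shown. Each line is the 250 bases before the start of the gene from RefSeq (GRCm38.p6), written 5′ to 3′ in the direction of the gene. Capitals mark the fixed letters of 3 motifs. These are the ER stress response element (CCAAT and CCACG with 9 bases of any kind between them), bound by NF-Y together with ATF6 or XBP1, its second form (ATTGG and CCACG with 1 base of any kind between them), and the C/EBP-ATF composite element TGATGNAA, bound by dimers that hold ATF4.
Hspa5 promoter (chr2:34771840-34772089, plus strand): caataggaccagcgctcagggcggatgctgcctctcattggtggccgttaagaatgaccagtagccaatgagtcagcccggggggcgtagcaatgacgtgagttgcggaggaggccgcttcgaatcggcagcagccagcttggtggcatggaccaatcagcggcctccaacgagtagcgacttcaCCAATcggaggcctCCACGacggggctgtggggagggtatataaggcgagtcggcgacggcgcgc
Hsp90b1 promoter (chr10:86705445-86705694, minus strand): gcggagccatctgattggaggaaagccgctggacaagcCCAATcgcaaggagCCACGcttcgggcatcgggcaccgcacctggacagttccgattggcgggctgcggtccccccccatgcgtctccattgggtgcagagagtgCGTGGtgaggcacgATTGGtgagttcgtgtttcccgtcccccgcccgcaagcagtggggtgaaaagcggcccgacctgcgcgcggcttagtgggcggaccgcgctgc
Dnajc3 promoter (chr14:118937682-118937931, plus strand): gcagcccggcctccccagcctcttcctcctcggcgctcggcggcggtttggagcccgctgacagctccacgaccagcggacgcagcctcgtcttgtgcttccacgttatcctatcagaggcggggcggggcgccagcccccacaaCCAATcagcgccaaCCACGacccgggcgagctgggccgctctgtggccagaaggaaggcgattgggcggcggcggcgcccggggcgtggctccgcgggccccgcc
Herpud1 promoter (chr8:94386179-94386428, plus strand): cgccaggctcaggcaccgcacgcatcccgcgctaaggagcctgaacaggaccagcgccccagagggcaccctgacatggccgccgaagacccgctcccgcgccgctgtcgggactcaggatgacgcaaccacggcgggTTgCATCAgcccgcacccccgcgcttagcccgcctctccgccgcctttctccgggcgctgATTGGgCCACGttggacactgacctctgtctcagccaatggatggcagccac
Xbp1 promoter (chr11:5520391-5520640, plus strand): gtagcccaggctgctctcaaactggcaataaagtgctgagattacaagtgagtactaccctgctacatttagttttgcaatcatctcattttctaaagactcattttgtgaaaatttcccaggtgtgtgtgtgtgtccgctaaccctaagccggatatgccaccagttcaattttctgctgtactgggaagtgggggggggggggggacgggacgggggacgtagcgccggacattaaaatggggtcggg
Both strands were searched from 250 bases before to 50 after each start. The first element was found in 39 of 32851 promoters (0.119%), among them those of Hspa5, Dnajc3 and Hsp90b1, which holds 1 match on each strand. The second form was found in 12 promoters (0.0365%), including Herpud1, which also holds the composite element, a motif present in 3.97% of promoters. The fourth motif searched, the unfolded protein response element TGACGTGG, was in 0.676% of promoters and in 0 of the 10. The Herpud1 matches do not overlap each other. A match is a description of the letters, not a measured binding site.

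On the RPKM scale, which corrects for gene length, the 10 genes spanned a wide range of levels. Hspa5 had the highest mean over the 9 libraries, at 339 RPKM, and Hsp90b1 followed at 254. Herpud1 was at 164, Sec61b at 144, Atf4 at 106 and Xbp1 at 56.9. Dnajb9 was at 29.7 and Dnajc3 at 27.4, and the lowest were Ern1 at 14.6 and Ddit3 at 13.8. By mean RPKM Hspa5 stood at percentile 98.9 of all genes and Ddit3 at percentile 66.2. The ranges of neighbours in this order overlapped over the libraries, except those of Atf4 and Xbp1, of Xbp1 and Dnajb9, and of Dnajc3 and Ern1.

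**Figure D1:**
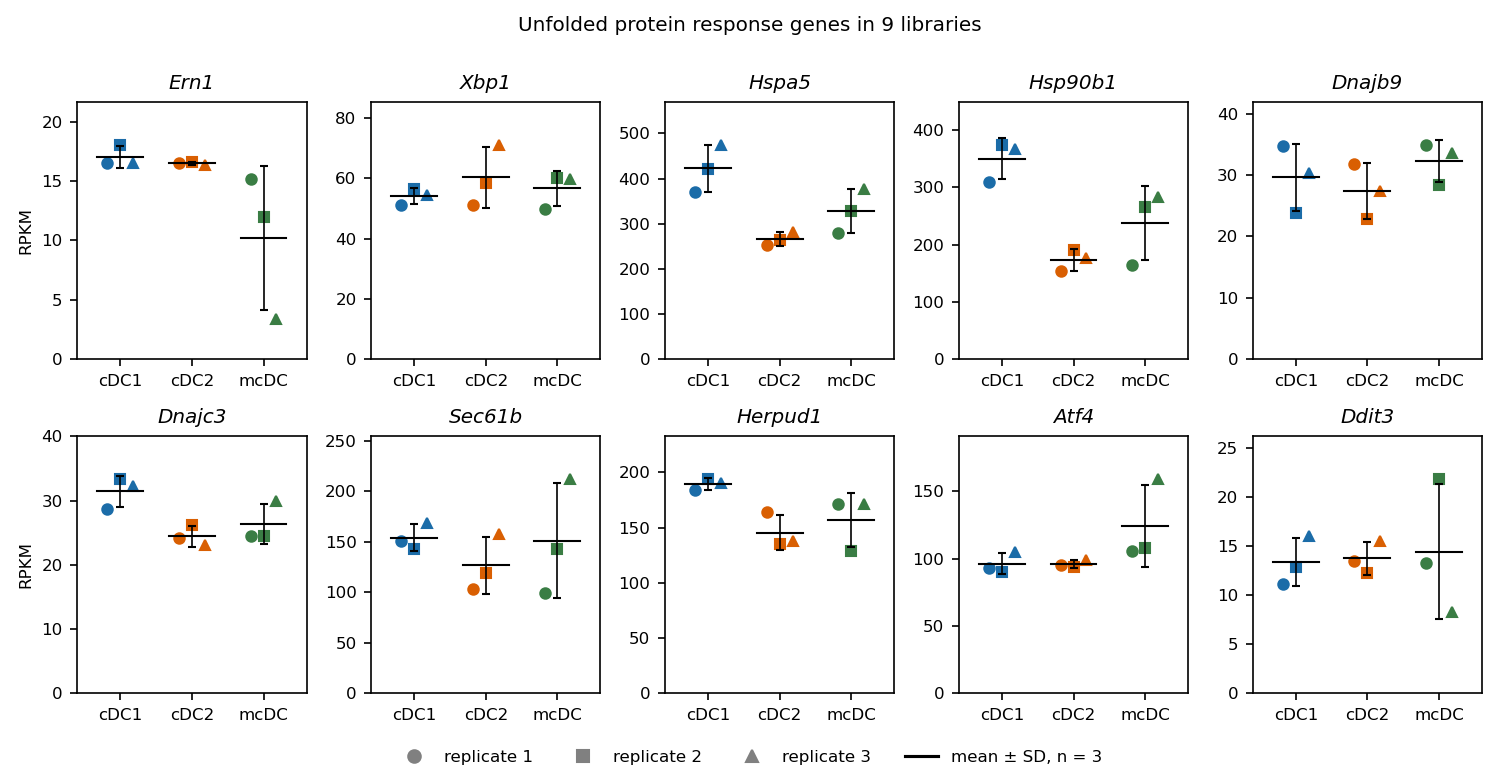
RPKM of the 10 genes (vertical axes from 0, 1 panel a gene) in each library of cDC1, cDC2 and mcDC, with lines and bars for the mean and SD of 3 libraries. Hspa5 and Hsp90b1 lie higher in every cDC1 library than in any cDC2 library, the Xbp1 libraries of the 3 subsets overlap, and mcDC replicate 3 is the lowest library for Ern1 and Ddit3.

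Differences were tested with limma on log2(RPKM + 1) over 11971 genes, and adjusted p-values are by the Benjamini and Hochberg method over all of them. Between cDC1 and cDC2, 2 of the 10 genes passed an adjusted p of 0.05, both higher in cDC1, against 19.6% of all genes tested (8.85% higher in cDC1). The 2 are Hspa5 and Hsp90b1. The libraries did not overlap at 4 genes, all higher in cDC1 (Hspa5, Hsp90b1, Dnajc3 and Herpud1), where 46.1% of all genes did not overlap (21.5% higher in cDC1). The median difference of the 10 was 0.20 on the log2 scale against -0.02 over all genes. At an unadjusted p of 0.05, 4 of the 10 passed. The share of all genes at this unadjusted cutoff was not counted in any of the comparisons.

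Between mcDC and cDC1, 0 of the 10 passed with limma, against 15.4% of all genes (9.53% higher and 5.88% lower in mcDC), and 3 had an unadjusted p under 0.05. The libraries did not overlap at 3 genes lower in mcDC (Ern1, Hsp90b1 and Herpud1) and at 1 higher (Atf4), where 11.0% and 19.5% of all genes were so placed. The median difference was -0.17 against 0.09 over all genes. Between mcDC and cDC2, 0 of the 10 passed with limma, against 3.66% of all genes (2.06% higher and 1.6% lower in mcDC), and 0 had an unadjusted p under 0.05. There 1 gene did not overlap in each direction, Atf4 higher and Ern1 lower in mcDC, against 13.9% and 7.7% of all genes. The median difference was 0.16 against 0.06. With voom on recovered reads, 3, 1 and 0 of the 10 passed in the 3 comparisons in the order given. Of all 11971 genes, 2645, 1789 and 431 passed with voom in the same order.

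The size of the gap to cDC1 depends on how the mcDC libraries are scaled. Median-of-ratios scaling moved the median of all genes for mcDC against cDC1 from 0.09 to -0.03. It also moved the genes called higher and lower in mcDC from 1141 and 704 to 837 and 963, and under it the median of the 10 genes was -0.31. Against cDC2, the same scaling moved these calls from 247 and 191 to 199 and 266, and the median of the 10 genes to 0.04. In bulk samples such as these, fewer cells of a type and less RNA per cell cannot be told apart.

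**Figure D2:**
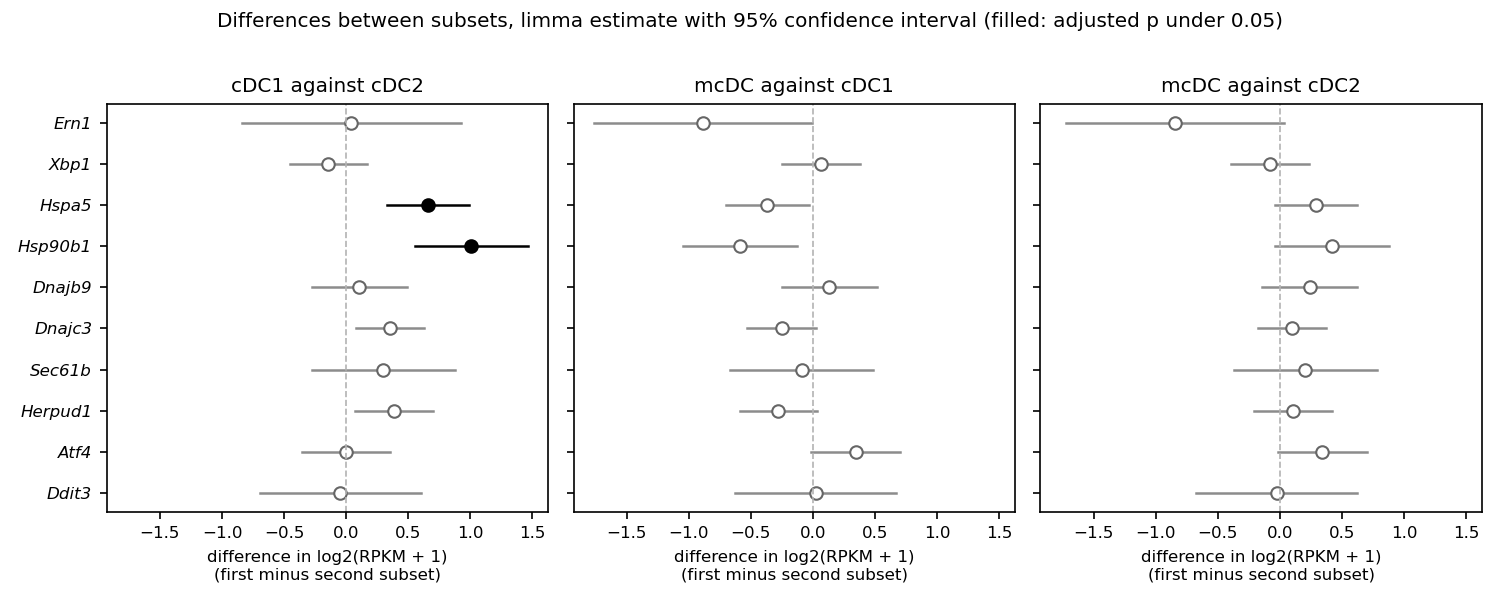
Difference in log2(RPKM + 1) of each gene (horizontal axis, first subset minus second) with its 95% confidence interval from limma, in 3 panels for the 3 comparisons. Filled points passed an adjusted p of 0.05: these are Hspa5 at 0.66 and Hsp90b1 at 1.01 for cDC1 against cDC2, and none in the other panels.

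Of the sensor and its target, Ern1 encodes the kinase and endoribonuclease IRE1. Ern1 was at 16.5, 18.1 and 16.5 RPKM in cDC1 replicates 1, 2 and 3, at 16.5, 16.6 and 16.4 in cDC2, and at 15.2, 11.9 and 3.42 in mcDC. All 6 cDC1 and cDC2 libraries lay above all 3 mcDC libraries, and the lowest value, in mcDC replicate 3, rests on 70 reads. The difference of cDC1 from cDC2 was 0.04 ± 0.39 (log2, SE, n = 3 libraries each; limma adjusted p = 0.97). For mcDC the difference was -0.89 ± 0.39 against cDC1 (limma adjusted p = 0.17) and -0.84 ± 0.39 against cDC2 (adjusted p = 0.32). Without mcDC replicate 3 these were -0.32 (limma adjusted p = 0.10) and -0.27 (adjusted p = 0.27). Without mcDC replicate 1 the first was -1.25 and passed (limma adjusted p = 0.044), and over the 19 alternatives its adjusted p ran from 0.044 to 0.35. The drop of Ern1 in mcDC replicate 3 against the other mcDC libraries was -1.71 on the log2 scale, against a median of -0.11 for the bin of genes of similar length.

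Xbp1, the factor that IRE1 activates, was at 51.1, 56.4 and 54.5 RPKM in cDC1, at 51.2, 58.4 and 71.2 in cDC2, and at 49.8, 60.1 and 59.9 in mcDC. The 3 subsets overlapped, and the highest library was cDC2 replicate 3. The difference of cDC1 from cDC2 was -0.14 ± 0.14 (95% confidence interval -0.46 to 0.17, limma adjusted p = 0.57), which as a fold is 0.905 with an interval of 0.729 to 1.12. That of mcDC was 0.06 ± 0.14 from cDC1 (-0.25 to 0.38, limma adjusted p = 0.81) and -0.08 ± 0.14 from cDC2 (-0.39 to 0.23, adjusted p = 0.82). Quantile normalization, median-of-ratios scaling and voom turned the sign of the difference from cDC1, to between -0.04 and -0.07. A difference in total Xbp1 mRNA between the subsets was not detected with 3 libraries of each, and its cut share was not measured.

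**Figure D3:**
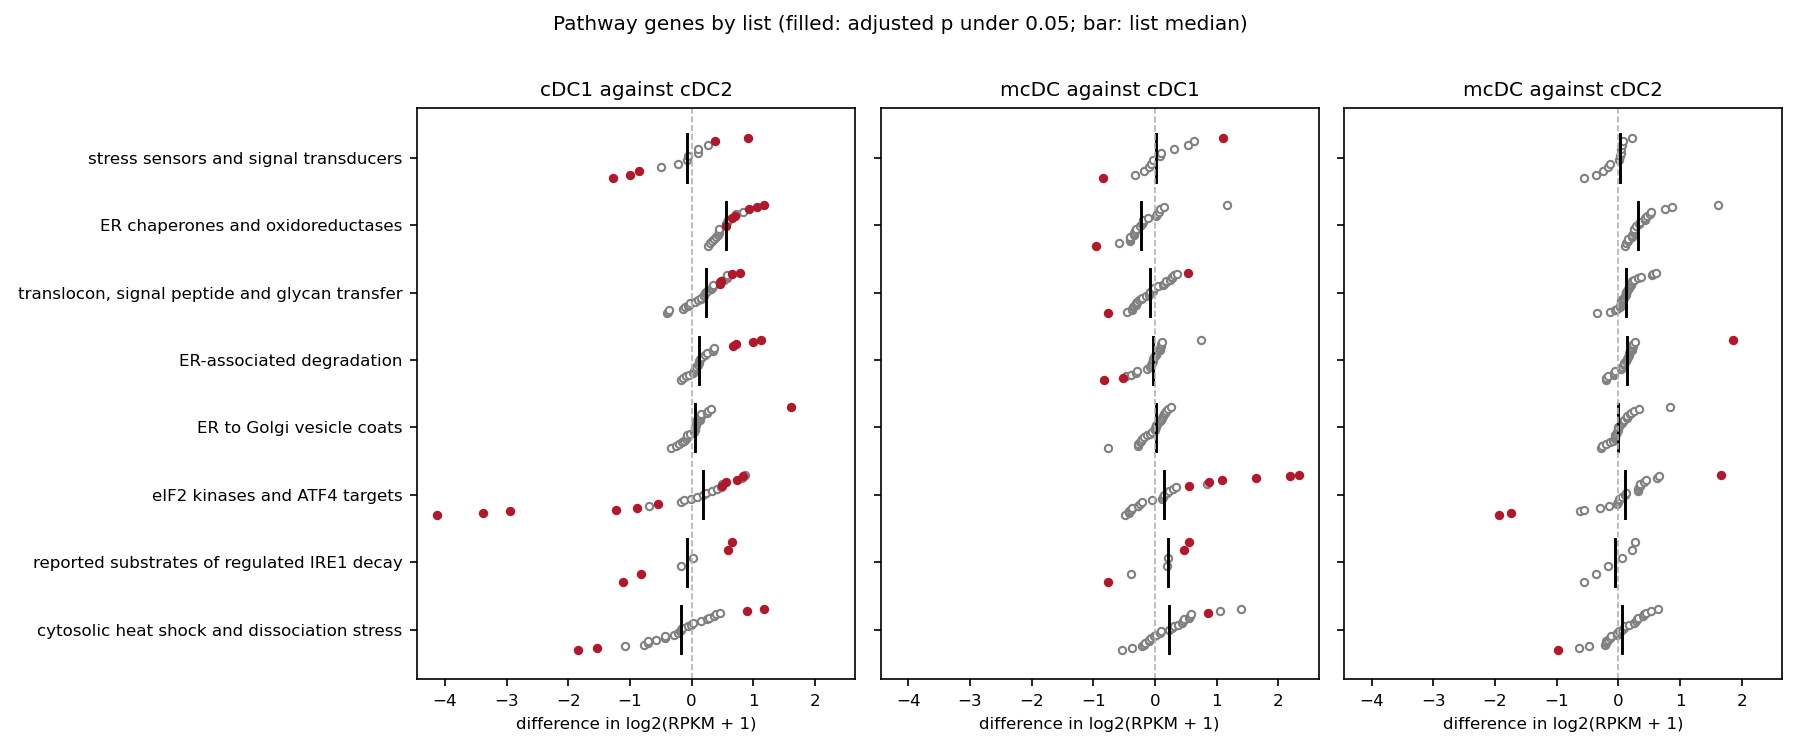
Difference in log2(RPKM + 1) of each gene (horizontal axes) in 8 lists of pathway genes (rows), in 3 panels for the 3 comparisons, with filled points for adjusted p under 0.05 and a bar at each list's median. All 20 ER chaperones and oxidoreductases lie above 0 for cDC1 against cDC2, and the widest spread is among eIF2 kinases and ATF4 targets.

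The 2 large ER chaperones were higher in cDC1 than in cDC2. Hsp90b1 encodes GRP94, the HSP90 of the ER, which folds Toll-like receptors and integrins among other clients. Hsp90b1 was at 309, 375 and 366 RPKM in cDC1, at 153, 191 and 177 in cDC2, and at 164, 266 and 283 in mcDC. Every cDC1 library lay above every library of the other subsets, and mcDC replicate 1 lay within the range of cDC2. On the log2(RPKM + 1) scale, which understates the change of low genes, the cDC1 level was 2.01-fold that of cDC2 (95% confidence interval 1.46 to 2.76), a log2 difference of 1.01 ± 0.20 (SE, limma adjusted p = 0.0066). It passed in 19 of 19 alternatives, with adjusted p from 0.00019 to 0.034.

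Hspa5 encodes BiP, the HSP70 of the ER, which holds the 3 stress sensors inactive in resting cells. Hspa5 was at 370, 422 and 475 RPKM in cDC1, at 253, 263 and 283 in cDC2, and at 279, 327 and 377 in mcDC. The cDC1 libraries were all above the cDC2 libraries, and mcDC overlapped both. The cDC1 level was 1.58-fold that of cDC2 (1.25 to 1.99), a log2 difference of 0.66 ± 0.15 (limma adjusted p = 0.011). The adjusted p rose to 0.056 without cDC1 replicate 3 and to 0.052 without cDC2 replicate 2, and over the 19 alternatives it ran from 0.00027 to 0.056.

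In mcDC both chaperones had means between those of cDC1 and cDC2. The difference of mcDC from cDC1 was -0.59 ± 0.20 for Hsp90b1 (limma adjusted p = 0.084) and -0.37 ± 0.15 for Hspa5 (adjusted p = 0.13). Without mcDC replicate 3 these were -0.73 (limma adjusted p = 0.030) and -0.47 (adjusted p = 0.039), and both passed. Without mcDC replicate 1 they were smaller, at -0.34 (limma adjusted p = 0.12) and -0.26 (adjusted p = 0.23). Over the alternatives the adjusted p ran from 0.0040 to 0.24 for Hsp90b1, which passed in 6 of 19, and from 0.011 to 0.36 for Hspa5, which passed in 4 of 19. Against cDC2, Hsp90b1 differed by 0.42 ± 0.20 (limma adjusted p = 0.34) and Hspa5 by 0.29 ± 0.15 (adjusted p = 0.37). Without mcDC replicate 1 the difference of Hsp90b1 from cDC2 was 0.66 and passed (limma adjusted p = 0.026, over alternatives 0.026 to 0.65). Without mcDC replicate 3 the differences from cDC2 were 0.27 for Hsp90b1 (limma adjusted p = 0.50) and 0.18 for Hspa5 (adjusted p = 0.51).

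The chaperones were also set against Xbp1 within each library. The ratio of Hspa5 to Xbp1 was 7.25 to 8.71 in cDC1, 3.97 to 4.95 in cDC2 and 5.44 to 6.29 in mcDC, so that the ranges of the 3 subsets did not overlap. The ratio of Hsp90b1 to Xbp1 was 6.05 to 6.72 in cDC1, 2.48 to 3.26 in cDC2 and 3.30 to 4.73 in mcDC. These ranges did not overlap either, but cDC2 replicate 2 (3.26) and mcDC replicate 1 (3.30) lay close together. Of the summed RPKM of the 10 genes, Hspa5 and Hsp90b1 made up 54.4% to 58.2% in cDC1, 44.9% to 48.4% in cDC2 and 46.3% to 53.0% in mcDC. These ratios were formed after the levels had been seen and are descriptions without a test. How often ratios of other genes separate the 3 subsets was not counted.

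The 2 co-chaperones of BiP come next. Dnajc3 encodes P58IPK, which brings unfolded proteins to BiP and is also known as an inhibitor of PERK and related kinases. Dnajc3 was at 28.7, 33.4 and 32.2 RPKM in cDC1, at 24.1, 26.1 and 23.0 in cDC2, and at 24.5, 24.5 and 29.9 in mcDC. The cDC1 libraries lay above the cDC2 libraries, and mcDC replicate 3 reached into the cDC1 range. cDC1 differed from cDC2 by 0.35 ± 0.12 (limma adjusted p = 0.079), and it passed in 4 of 19 alternatives, whose adjusted p ran from 0.016 to 0.26. One of these left out mcDC replicate 3 (limma adjusted p = 0.024). The difference of mcDC was -0.25 ± 0.12 from cDC1 (limma adjusted p = 0.21) and 0.10 ± 0.12 from cDC2 (adjusted p = 0.73). Without mcDC replicate 3 these were -0.34 (limma adjusted p = 0.0501) and 0.0061 (adjusted p = 0.98).

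Dnajb9 encodes ERdj4, a co-chaperone that is a well-known target of XBP1 and that helps BiP bind IRE1. Dnajb9 was at 34.7, 23.9 and 30.2 RPKM in cDC1, at 31.8, 22.8 and 27.4 in cDC2, and at 35, 28.4 and 33.5 in mcDC. The subsets overlapped, and in each of them replicate 1 was the highest library and replicate 2 the lowest. Between cDC1 and cDC2 the difference was 0.11 ± 0.17 (95% confidence interval -0.28 to 0.49, limma adjusted p = 0.76). The difference of mcDC was 0.13 ± 0.17 from cDC1 (-0.25 to 0.52, limma adjusted p = 0.67) and 0.24 ± 0.17 from cDC2 (-0.14 to 0.62, adjusted p = 0.53).

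Sec61b encodes the beta subunit of the Sec61 channel, through which new proteins enter the ER. Sec61b was at 151, 143 and 169 RPKM in cDC1, at 103, 119 and 158 in cDC2, and at 99.0, 143 and 212 in mcDC. The subsets overlapped, replicate 3 was the highest library in each, and the spread within mcDC was the widest. The counted length of Sec61b is 552 bases, in the bin of shortest genes, where mcDC replicate 3 was above the other mcDC libraries by a median of 0.44 (log2). At Sec61b it was above them by 0.83. The difference of cDC1 from cDC2 was 0.30 ± 0.26 (95% confidence interval -0.28 to 0.87, limma adjusted p = 0.52), and those of mcDC were -0.09 ± 0.26 from cDC1 (adjusted p = 0.86) and 0.21 ± 0.26 from cDC2 (adjusted p = 0.73). Both mcDC differences changed sign when 1 mcDC library was left out: 0.18 from cDC1 without replicate 1, and -0.07 from cDC2 without replicate 3.

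Herpud1 encodes HERP, a membrane protein of the ER that helps assemble the complex that sends misfolded proteins to the proteasome. Herpud1 was at 183, 194 and 190 RPKM in cDC1, at 164, 135 and 137 in cDC2, and at 171, 129 and 171 in mcDC. All cDC1 libraries lay above all others, which overlapped each other. For cDC1 against cDC2 it was 0.38 ± 0.14 (limma adjusted p = 0.090) and passed in 5 of 19 alternatives, whose adjusted p ran from 0.021 to 0.28. One of these left out mcDC replicate 2 (limma adjusted p = 0.050). The difference of mcDC was -0.28 ± 0.14 from cDC1 (limma adjusted p = 0.22) and 0.10 ± 0.14 from cDC2 (adjusted p = 0.75). Without mcDC replicate 2 the first was -0.14 (limma adjusted p = 0.51), and the second ran from 0.036 to 0.24 with 1 library left out.

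Of the PERK arm, Atf4 encodes a transcription factor whose activity is set mainly at translation, which these data do not measure. Atf4 was at 93.0, 90.4 and 105 RPKM in cDC1, at 95.1, 94.0 and 99.3 in cDC2, and at 106, 108 and 159 in mcDC. The mcDC libraries were all above the others, mcDC replicate 3 most of all. The difference of cDC1 from cDC2 was -0.0018 ± 0.16 (95% confidence interval -0.36 to 0.35, limma adjusted p = 0.997). Those of mcDC were 0.34 ± 0.16 from cDC1 (limma adjusted p = 0.19) and 0.34 ± 0.16 from cDC2 (adjusted p = 0.32), and neither passed in any of 19 alternatives, in which adjusted p was 0.073 or more. Without mcDC replicate 3 these differences fell to 0.15 and 0.15.

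Ddit3 encodes CHOP, a factor linked to cell death after lasting stress. Ddit3 was at 11.2, 12.9 and 16.0 RPKM in cDC1, at 13.5, 12.2 and 15.5 in cDC2, and at 13.2, 21.9 and 8.25 in mcDC. The cDC1 and cDC2 libraries overlapped, and mcDC held both the highest and the lowest library. The value in mcDC replicate 3 rests on 37 reads, and it was below the other mcDC libraries by 0.96 (log2), while the median gene of its length bin was above them. The differences were -0.05 ± 0.29 for cDC1 from cDC2 (95% confidence interval -0.70 to 0.60, limma adjusted p = 0.95), 0.02 ± 0.29 for mcDC from cDC1 (adjusted p = 0.97) and -0.02 ± 0.29 for mcDC from cDC2 (adjusted p = 0.97). The ratio of Ddit3 to Atf4 in RPKM was 0.120 to 0.152 in cDC1, 0.130 to 0.156 in cDC2, and 0.125, 0.202 and 0.0518 in mcDC replicates 1, 2 and 3.

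**Figure D4:**
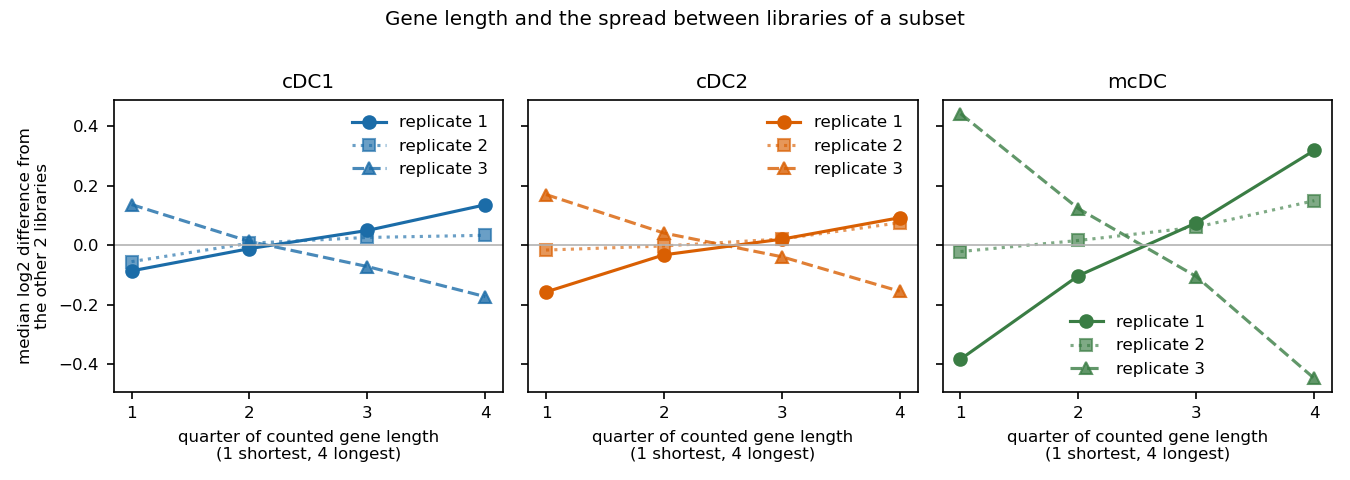
Median log2 difference of each library from the other 2 of its subset (vertical axis) over genes in 4 equal bins of counted length (horizontal axis, shortest to longest), 1 panel a subset and 1 line a library. The line of mcDC replicate 3 falls from 0.44 to -0.45 and that of mcDC replicate 1 rises from -0.38 to 0.32, while the cDC1 and cDC2 lines stay between -0.17 and 0.17.

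Other genes of the pathway were read from 8 lists, given as counts that passed limma and medians. Of all genes tested, 8.85% were called higher and 10.7% lower in cDC1 than in cDC2. For mcDC these shares were 9.53% and 5.88% against cDC1, and 2.06% and 1.6% against cDC2. Differences were above 0 at 5675 of 11971 genes for cDC1 against cDC2 and at 6929 for mcDC against cDC2. Of 20 ER chaperones and oxidoreductases, 6 were higher in cDC1 than in cDC2 and 0 lower, with a median of 0.56, and all 20 differences were above 0 under the deposited and 3 other scalings. The count was 2 without replicate 2 or 3 of cDC1 or replicate 1 of cDC2, 3 without cDC2 replicate 2, 13 without mcDC replicate 1 and 14 without mcDC replicate 3. Ero1lb, an oxidase that renews protein disulfide isomerase, was at 39.1, 39.8 and 34.4 RPKM in cDC1, at 18.5, 17.2 and 17.0 in cDC2, and at 21.4, 18.9 and 16.9 in mcDC. It was higher in cDC1 than in cDC2 (1.06 ± 0.12, limma adjusted p = 0.00027) and lower in mcDC than in cDC1 (-0.95 ± 0.12, adjusted p = 0.00087). Pdia3, an isomerase of glycoprotein folding and MHC class I loading, was at 323 ± 29.1 RPKM in cDC1 against 169 ± 12.6 in cDC2 (mean ± SD; 0.93 ± 0.20, limma adjusted p = 0.0096).

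Creld2, a secreted stress-induced factor, was at 50.5 ± 9.57 RPKM in cDC1 against 21.8 ± 4.43 in cDC2 (1.18 ± 0.27, limma adjusted p = 0.013), and the call was lost when replicate 2 (0.058) or 3 (0.060) of cDC1 or replicate 1 of cDC2 (0.055) was left out. Calr, calreticulin, had the highest level of the chaperone list but did not pass, at 594 ± 77.6 RPKM in cDC1 against 396 ± 34.1 in cDC2 (0.58 ± 0.19, limma adjusted p = 0.057). Against cDC1, 0 of the 20 were higher in mcDC and 1 was lower, Ero1lb, with a median of -0.23, and without mcDC replicate 3 the lower count was 4. Against cDC2, 0 passed with limma or voom and 5 were higher at an unadjusted p under 0.05. The median was 0.31 with 20 of 20 differences above 0 (19 of 20 under median-of-ratios scaling), where 6929 of all 11971 genes were above 0 as deposited. Without mcDC replicate 1, 6 of the 20 were higher in mcDC than in cDC2.

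Of 30 genes of the translocon, signal peptidase and glycan transfer, 5 were higher in cDC1 than in cDC2 and 0 lower, with a median of 0.23. The count was 1 or 2 without any single cDC1 or cDC2 library, and 8 without mcDC replicate 1 or mcDC replicate 3. Sec63, which couples the channel to BiP, was at 27.8, 29.7 and 27.1 RPKM in cDC1, at 15.4, 16.4 and 16.1 in cDC2, and at 15.6, 16.8 and 16.4 in mcDC. The mcDC libraries lay at the level of cDC2, and cDC1 was above both (0.78 ± 0.10 against cDC2, limma adjusted p = 0.00059; mcDC against cDC1 -0.76 ± 0.10, adjusted p = 0.0012). Sec11c, a signal peptidase, was at 179 ± 12.5 RPKM in cDC1 against 113 ± 10.2 in cDC2 (0.66 ± 0.17, limma adjusted p = 0.021), and missed the threshold without any single cDC1 library (0.053 to 0.085) or without cDC2 replicate 1 (0.075) or 2 (0.084). Stt3b, a catalytic subunit of oligosaccharyltransferase, ran the other way, at 22.6 ± 1.75 RPKM in cDC1 and 33.3 ± 2.88 in mcDC (0.54 ± 0.12, limma adjusted p = 0.014), a call lost without cDC1 replicate 2 (0.064) or 3 (0.063). Srp14 of the signal recognition particle, the highest of the list that did not pass, was at 74.0 ± 8.51, 76.5 ± 9.29 and 86.0 ± 26.7 RPKM in cDC1, cDC2 and mcDC.

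Of 22 genes of ER-associated degradation, 4 were higher in cDC1 than in cDC2 and 0 lower, with a median of 0.13, and 7 were higher without mcDC replicate 3. Man1b1, a mannosidase that marks glycoproteins for degradation, was at 49.6, 58.4 and 55.2 RPKM in cDC1, at 27.4, 27.1 and 25.6 in cDC2, and at 34, 38.7 and 21.2 in mcDC. It was higher in cDC1 than in cDC2 (1.0 ± 0.19, limma adjusted p = 0.0054). In mcDC it was lower than in cDC1 (-0.82 ± 0.19, limma adjusted p = 0.020), a call lost without cDC1 replicate 2 (0.086) or 3 (0.071). Vimp, which recruits the VCP ATPase to the ER, was at 59.2 ± 3.34 RPKM in cDC1 against 35.5 ± 2.93 in cDC2 (0.72 ± 0.16, limma adjusted p = 0.011). Os9, a lectin that reads trimmed glycans, did not pass, at 61.8 ± 4.24, 61.0 ± 4.16 and 65.2 ± 4.16 RPKM in cDC1, cDC2 and mcDC.

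Derl3, a derlin that is scarce outside secretory cells, was at 1.16, 3.39 and 2.47 RPKM in cDC1, at 0.325, 0.195 and 1.02 in cDC2, and at 3.27, 4.30 and 5.81 in mcDC. It was the 1 gene of the degradation list higher in mcDC than in cDC2 (1.86 ± 0.32, limma adjusted p = 0.013), and the call was lost without cDC2 replicate 1 (0.051) or 2 (0.077). Its difference of cDC1 from cDC2 was 1.12 ± 0.32 (limma adjusted p = 0.036), a call lost without cDC1 replicate 2 (0.149) or 3 (0.116), cDC2 replicate 1 (0.115) or 2 (0.140), or mcDC replicate 2 (0.053). Of 24 genes of ER to Golgi vesicle coats, 1 was higher in cDC1 than in cDC2 (2 without mcDC replicate 3), with a median of 0.06. This was Sec24d, a cargo adaptor of COPII coats, at 9.70, 9.97 and 9.81 RPKM in cDC1, at 1.75, 2.63 and 3.5 in cDC2, and at 3.78, 6.57 and 6.19 in mcDC (cDC1 against cDC2 1.61 ± 0.23, limma adjusted p = 0.00097). For mcDC, 0 genes of the coat list passed with limma against cDC1 (3 lower at an unadjusted p under 0.05 and 3 lower with voom), and 0 passed with limma or voom against cDC2 (1 higher at an unadjusted p under 0.05).

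Of 12 other sensors and signal transducers, 2 were higher and 3 lower in cDC1 than in cDC2, with a median of -0.07. The higher count was 1 without cDC1 replicate 2 or 3 or without any single cDC2 library. Rtcb, the ligase that rejoins Xbp1 mRNA after the cut, was at 132, 141 and 151 RPKM in cDC1, at 71.2, 71.3 and 80.9 in cDC2, and at 58.7, 82.1 and 99.4 in mcDC. Every cDC1 library lay above every other, with a log2 difference of 0.91 ± 0.18 against cDC2 (limma adjusted p = 0.0050) and of -0.84 ± 0.18 for mcDC against cDC1 (adjusted p = 0.011). Ptpn1, an ER phosphatase, was lower in cDC1, at 29 ± 0.466 RPKM against 60.5 ± 17.4 in cDC2 (-0.99 ± 0.21, limma adjusted p = 0.0075).

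Map3k5 encodes ASK1, a kinase that IRE1 can activate through TRAF2. Map3k5 was at 13, 10.1 and 7.19 RPKM in cDC1, at 29.9, 27.8 and 19.1 in cDC2, and at 31.7, 22.9 and 15.4 in mcDC. It was lower in cDC1 than in cDC2 (-1.27 ± 0.29, limma adjusted p = 0.011), with an adjusted p of 0.051 without cDC1 replicate 3 or cDC2 replicate 2. It was higher in mcDC than in cDC1 (1.11 ± 0.29, limma adjusted p = 0.028), a call lost without cDC1 replicate 2 (0.086) or 3 (0.109) or mcDC replicate 1 (0.062) or 2 (0.072). Atf6, named here after its values were seen because it is the third sensor, was at 18.8 ± 1.81 RPKM in cDC1, 34.7 ± 0.586 in cDC2 and 23.6 ± 4.4 in mcDC. It was lower in cDC1 than in cDC2 (-0.85 ± 0.14, limma adjusted p = 0.0025), the opposite direction to Hspa5 and Hsp90b1. Eif2ak3, which encodes PERK and was also named after its values were seen, was at 13.9 ± 1.44, 14.8 ± 2.58 and 12.9 ± 5.05 RPKM in cDC1, cDC2 and mcDC, with limma adjusted p-values of 0.90, 0.73 and 0.69 for cDC1 against cDC2, mcDC against cDC1 and mcDC against cDC2. Tmbim6, an ER membrane protein that restrains IRE1, did not pass either, at 172 ± 0.907, 200 ± 7.18 and 183 ± 5.42 RPKM in that order of subsets.

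Of 29 eIF2 kinases, regulators and ATF4 targets, 23 passed the filter, and 4 of these were higher and 6 lower in cDC1 than in cDC2, with a median of 0.19. The higher count was 2 without cDC1 replicate 2 or any single cDC2 library. Nupr1, a small stress-induced chromatin protein, was at 0.435, 1.01 and 1.15 RPKM in cDC1, at 22.9, 31.2 and 42.1 in cDC2, and at 6.79, 7.17 and 8.38 in mcDC. The 3 subsets did not overlap, with differences of -4.13 ± 0.24 for cDC1 against cDC2 (limma adjusted p = 5.2e-06), 2.19 ± 0.24 for mcDC against cDC1 (0.00036) and -1.93 ± 0.24 for mcDC against cDC2 (0.0042). Cebpb, a transcription factor of myeloid cells and a partner of CHOP, was at 3.89, 2.93 and 5.23 RPKM in cDC1, at 52.0, 43.3 and 56.3 in cDC2, and at 14.2, 9.94 and 20.7 in mcDC. Again the subsets did not overlap, and limma gave adjusted p-values of 2.4e-05, 0.0026 and 0.0074 in the same order of comparisons. Ddit4, an inhibitor of mTORC1, was at 6.90, 6.62 and 5.45 RPKM in cDC1, at 41.1, 68.3 and 60.0 in cDC2, and at 24.8, 43.5 and 42.2 in mcDC.

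Ddit4 was lower in cDC1 than in cDC2 (-2.95 ± 0.24, limma adjusted p = 3.8e-05) and higher in mcDC than in cDC1 (2.33 ± 0.24, adjusted p = 0.00028), and its mcDC and cDC2 libraries overlapped. For mcDC against cDC1, 6 genes of the list were higher and 0 lower, with 0.14 as the median, and median-of-ratios scaling gave 3 lower and a median of 0.01. For mcDC against cDC2, 1 was higher and 2 were lower, and the higher count was 0 without cDC2 replicate 2 or 3 or mcDC replicate 2 and 2 without mcDC replicate 1. Other factors besides ATF4 are known to drive these genes. The most abundant gene of the list that did not pass, Ppp1r15a (GADD34, which reverses eIF2 phosphorylation), was at 93.1 ± 4.52, 108 ± 30.5 and 118 ± 33.6 RPKM in cDC1, cDC2 and mcDC.

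Of 10 mRNAs reported elsewhere as cut by IRE1 in regulated decay, 8 were found and 6 passed the filter. Of these 6, 2 were higher and 2 lower in cDC1 than in cDC2. Itgb2, the CD18 integrin chain, was at 269, 259 and 248 RPKM in cDC1, at 464, 465 and 448 in cDC2, and at 390, 355 and 331 in mcDC. The subsets did not overlap, and cDC1 was lower than cDC2 (-0.83 ± 0.11, limma adjusted p = 0.00066). Hgsnat, a lysosomal acetyltransferase, was at 7.50 ± 0.249 RPKM in cDC1 against 17.4 ± 0.825 in cDC2 (-1.11 ± 0.16, limma adjusted p = 0.00095). Galnt10, which starts O-glycans, was higher in cDC1, at 22.6 ± 2.53 RPKM against 14.6 ± 0.871 (0.59 ± 0.16, limma adjusted p = 0.027), a call lost without cDC1 replicate 2 (0.120) or 3 (0.077) or any single cDC2 library (0.070 to 0.098). Bloc1s1, the substrate most often used to read this decay, did not pass, at 62.2 ± 5.94, 69.9 ± 8.22 and 73.9 ± 18.9 RPKM in cDC1, cDC2 and mcDC. The decay itself was not measured.

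Stress from isolating the cells was read from 25 cytosolic heat shock and immediate early genes. Of these, 2 were higher and 2 lower in cDC1 than in cDC2, with a median of -0.17 against -0.02 over all genes. The higher count was 4 without mcDC replicate 1, and the lower count was 1 without cDC1 replicate 2 or 3, any single cDC2 library or mcDC replicate 2. The most abundant, Hspa8, the constitutive cytosolic HSP70, was at 1326 to 1416 RPKM in cDC1, 1126 to 1319 in cDC2 and 1078 to 1365 in mcDC, with no call. Hspb1 was called higher in cDC1 than in cDC2, at 1.61 to 2.40 RPKM against 0.089 to 0.576. Fosl2 was called lower in cDC1, at 0.633 to 0.990 RPKM against 4.10 to 6.98 in cDC2. Nr4a1, an immediate early factor, was at 168, 73.7 and 80.2 RPKM in cDC1, at 471, 231 and 228 in cDC2, and at 419, 145 and 150 in mcDC. Its call, lower in cDC1 than in cDC2, was lost in 11 of 19 alternatives. In each subset replicate 1 was above the others at Nr4a1, and it was the replicate in which Hspa5 was the lowest. For mcDC, 1 of the 25 was higher and 0 lower than in cDC1 (median 0.22), and 0 were higher and 1 lower than in cDC2 (median 0.06). With the run of library titles fitted as a block, 5 were higher and 7 lower in cDC1 than in cDC2, against 1357 and 1585 of all 11971 genes. For mcDC the block gave 10 and 0 against cDC1 (1565 and 909 of all genes) and 3 and 2 against cDC2 (462 and 311). The part of isolation stress in the chaperone differences was not tested.

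Plasma cells carry high ER chaperone and Xbp1 levels, so their markers are given beside these results. The mean log2(RPKM + 1) of 8 plasma cell markers was 1.99 to 2.97 in cDC1, 2.28 to 2.54 in cDC2 and 2.88 to 3.59 in mcDC, and only Tnfrsf17 in cDC1 replicate 1 was at 0. Jchain, the joining chain of secreted immunoglobulin, was at 32.2, 69.3 and 143 RPKM in cDC1, at 13.3, 13.3 and 29.8 in cDC2, and at 85.6, 197 and 274 in mcDC. Within cDC1 and mcDC, Jchain and Hspa5 were both lowest in replicate 1 and highest in replicate 3. Both were higher in every cDC1 library than in any cDC2 library. Jchain in mcDC replicates 2 and 3 was above every cDC1 library, and the Hspa5 libraries of mcDC and cDC1 overlapped. Mzb1, another plasma cell gene that plasmacytoid dendritic cells also express, was at 0.802 to 9.33 RPKM in cDC1, 0.862 to 1.56 in cDC2 and 7.50 to 19.5 in mcDC, and Sdc1 at 0.149 to 2.03 RPKM over all libraries. Others of the list ran differently. Tnfrsf13b was at 14.2 to 15.3 RPKM in cDC2, 1.93 to 2.61 in cDC1 and 1.81 to 10.8 in mcDC. Prdm1 was at 2.92 to 3.19 in cDC2, 0.634 to 0.871 in cDC1 and 1.83 to 3.13 in mcDC. With limma, 1 of the 8 was called higher and 2 lower in cDC1 than in cDC2. For mcDC, 1 was higher than in cDC1, 2 were higher than in cDC2 and 0 were lower than in either. The part of plasma cell RNA in the chaperone levels was not tested.

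The genes whose pattern was most like that of Xbp1 were sought among 8116 genes with a mean of at least 5 RPKM. By Pearson's r of log2(RPKM + 1) over the 9 libraries they were Wdr74 (0.97), Snx1 (0.93), Taf3 (0.91), Arpc5 (0.90) and Fam220a (0.90). Snx1, a sorting nexin of endosomes, was at 57.1, 62.0 and 60.7 RPKM in cDC1, at 56.6, 73.1 and 83.0 in cDC2, and at 52.0, 63.3 and 73.6 in mcDC, like Xbp1 with its highest value in cDC2 replicate 3. The other 9 genes of the response had r with Xbp1 between -0.59 (Herpud1) and 0.50 (Sec61b), and Hspa5 and Hsp90b1 were at -0.07 and -0.04. The 9 libraries share subsets and runs, so these are descriptions of the libraries without a p-value.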

How the data were processed

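RNA from sorted splenic dendritic cells was extracted with the mirVana kit and made into directional libraries with the NEBNext Ultra kit, per the labels' protocols. The authors deposited RPKM, reads per kilobase of gene per M mapped reads, for 9 libraries, and 8 of them also in single files with the same values. No file states this unit. It follows from the values, whose steps gave whole reads for 100% of nonzero values within 0.01 of a read. Genome build mm8 is named per the submitters' processing notes. Aligner, counting tool, annotation, use of strand and handling of reads shared by gene copies: not given in the sources used here. Antisense or near-identical genes therefore cannot be told apart. There were 0 columns of other samples. RefSeq and GENCODE tables are of another build and served for sequences and names alone.

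The test was that of limma 3.58.1 (R 4.3.3) on log2(RPKM + 1) with a trend in the prior variance, in 1 fit of the 3 subsets, for the 11971 genes that exceeded 1 RPKM in 2 or more libraries. Adjusted p-values follow Benjamini and Hochberg over these genes, with a threshold of 0.05. The script was tested on simulated data. Replicates 1, 2 and 3 follow runs of consecutive library titles. As alternatives, values were quantile normalized or scaled by median of ratios, 0.1 was the pseudocount, the filter was dropped or set at 5 RPKM, the 2 groups were fitted alone, the trend was dropped, the run was a block, voom was run on recovered reads, and each library was left out. The block without mcDC replicate 3 was added after the data were seen. Members and lists were chosen with earlier results of these data known, and 304 of 313 listed names were found. Besides the members, the text names up to 3 called genes of each pathway list with the largest change and the uncalled gene with the highest mean, marker genes where needed, and the 5 genes most correlated with Xbp1. Software was Python 3.11.15, numpy 2.4.6, pandas 2.3.3 and matplotlib 3.10.9.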

Additional observations from a re-analysis of the deposited data

How the results depend on the processing

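Hsp90b1 passed between cDC1 and cDC2 in every alternative run, and Hspa5 in 17 of 19. Of the member differences under alternatives, 516 kept direction and side of the threshold, 22 newly passed, 2 no longer passed and 30 changed sign, the 30 from 12 differences with adjusted p of 0.67 to 0.997 as deposited. Of those of the other named genes, 637 kept both and 82 no longer passed. The cause of these changes was not tested.

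Genes called for mcDC against cDC1 numbered 1845, 1096 with the 2 groups alone and 951 to 2601 with 1 library left out (lowest without cDC1 replicate 2, and 1133 without cDC1 replicate 3). For mcDC against cDC2 they numbered 438, 251 with the groups alone and 158 to 896 with 1 left out (279, 158 and 188 without cDC2 replicates 1, 2 and 3, and 896 without mcDC replicate 1). For cDC1 against cDC2 they numbered 2344, 3731 with the groups alone and 1547 to 3467 with 1 left out (lowest without cDC1 replicate 2). Of the 10 members, 0 were called for mcDC against cDC1 as deposited, 2 with quantile normalization, 1 with median-of-ratios scaling, 1 with voom and 0 to 2 with 1 library left out (1 without mcDC replicate 1, 2 without mcDC replicate 3). For mcDC against cDC2 this was 0, and 0 to 1 with 1 left out (1 without mcDC replicate 1). For cDC1 against cDC2 it was 2, 4 with the groups alone and 1 to 3 with 1 left out (1 without cDC1 replicate 3 or cDC2 replicate 2).

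The title run was fitted as a replicate block. Over 8358 genes, deviations of same-run libraries correlated at 0.07 to 0.55 (mean 0.35) and others at -0.55 to 0.01 (mean -0.17), and 9 of 9 libraries correlated best with their own run, a hint from the data and not from the design. With the block, 2474, 773 and 2942 genes and 2, 0 and 3 members were called for mcDC against cDC1, mcDC against cDC2 and cDC1 against cDC2. With the block and mcDC replicate 3 left out these were 3003, 718 and 4274 genes and 3, 0 and 4 members.

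Changes of sign for mcDC against cDC1 were Xbp1 (-0.035, -0.074 and -0.069 with quantile normalization, median-of-ratios scaling and voom), Ddit3 (-0.048, -0.11 and -0.074 with the same 3, and -0.31 to 0.34 with 1 library left out), Dnajb9 (-0.0025 with median-of-ratios scaling, -0.0090 to 0.25 with 1 left out) and Sec61b (-0.37 to 0.18 with 1 left out). For mcDC against cDC2 they were Dnajc3 (-0.0096 with median-of-ratios scaling, -0.0048 with the block and mcDC replicate 3 left out), Herpud1 (-0.0074 with median-of-ratios scaling), Ddit3 (0.40 with the block and mcDC replicate 3 left out, -0.36 to 0.30 with 1 left out), Xbp1 (-0.19 to 0.044) and Sec61b (-0.072 to 0.48). For cDC1 against cDC2 they were Atf4 (0.049, 0.024 and 0.031 with quantile normalization, median-of-ratios scaling and voom, -0.066 to 0.041 with 1 left out), Dnajb9 (-0.014 to 0.25) and Ddit3 (-0.18 to 0.066). Ern1 and Ddit3 had the lowest read counts of the members, with 70 and 37 reads in mcDC replicate 3, a library of 5.15 M reads. In mcDC replicate 2, a library of 5.57 M reads, they had 264 and 106. The part of depth in the low counts was not tested. Leaving out a library from a group of 3 rests on the spread shared by all groups.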

Other observations

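Some of the response genes had the same lowest or highest replicate in every subset. Hspa5 was lowest in replicate 1 and highest in replicate 3 of cDC1, cDC2 and mcDC. Xbp1 and Hsp90b1 were lowest in replicate 1 of each subset, Atf4 and Sec61b were highest in replicate 3 of each, and Dnajb9 was highest in replicate 1 and lowest in replicate 2 of each. Ern1, Dnajc3, Ddit3 and Herpud1 had no replicate that was highest or lowest in all 3 subsets. The share of all genes with such a shared replicate was not counted, so this is not a trait particular to the response genes. What the libraries of a run have in common is not in the labels.

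Within mcDC, replicate 3 was above the mean of the other libraries at 8 of the 10 genes, from 0.09 (Dnajb9) to 0.83 (Sec61b) on the log2 scale. At Dnajb9, Xbp1 and Herpud1 another mcDC library was higher than replicate 3. The differences from the mean were -1.71 at Ern1 and -0.96 at Ddit3. At Dnajc3 the difference was 0.28, and its counted length of 5190 bases lies in the bin of longest genes, where the median was -0.45.

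Marker lists of other cells, as the mean log2(RPKM + 1) in cDC1, cDC2 and mcDC libraries in turn, were 2.6 to 3.40, 2.62 to 2.77 and 3.27 to 3.48 for plasmacytoid dendritic cells. Neutrophil markers were at 0.71 to 1.77, 2.48 to 5.14 and 0.70 to 1.66, and those of monocytes at 3.74 to 4.31, 4.94 to 5.82 and 4.59 to 5.10. Erythroid and platelet markers were at 0.61 to 3.14, 0.53 to 1.30 and 0.69 to 2.92, lowest in replicate 1 of each subset. NK cell markers were at 2.74 to 3.12, 2.19 to 2.80 and 3.37 to 4.52. T cell markers were at 2.05 to 2.58, 1.45 to 1.83 and 2.20 to 2.37, and those of B cells at 1.79 to 2.04, 1.82 to 2.07 and 1.78 to 2.49. The part of these other cells in the chaperone results was not tested.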
